A study of Bos taurus with 3 samples.

Results

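The genes described here were named for protection of the epithelial surface of the rumen. They are *BPIFA2C*, *SLURP1*, *PHGR1*, *LYPD3*, *PIGR* and *LTF*, of which 5 were among the 19533 genes with a named row in the count matrix used here. *PIGR* was not analysed here. The 6 were chosen on earlier results of the same cells, in which some of them were high in epithelial cells with *GJA1* (connexin 43, a gap junction subunit) and *GSTA1* (a glutathione S-transferase). Their levels by cell class are therefore given as a description with no test. The word secreted does not suit every one of them, because LYPD3 is held on the cell surface by a lipid anchor and the product of *PIGR* spans the membrane.

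Epithelium of the ventral sac of the rumen was taken from 3 adult lactating Holstein dairy cows and measured with 1 droplet library of 3′ single-cell RNA sequencing each. The design has 1 condition and no treated group, and the authors had removed non-epithelial cells before deposit. The matrix held 20728 cells and 237958901 UMIs (unique molecular identifiers, which count each captured transcript 1 time). Cow 1 had 3369 cells, cow 2 had 7401 and cow 3 had 9958, with a median of 10342, 12051 and 9747 UMIs per cell, and 35 barcodes occurred in more than 1 library.

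The rumen wall is lined by a stratified squamous epithelium that faces a dense microbial community and carries no mucus-secreting glands. Protection of such a surface is known to rest on secreted lipid-binding and antimicrobial proteins, on small Ly6/uPAR proteins of keratinocytes, on S100 proteins and on inhibitors of proteases. BPIFA2C belongs to the BPI fold-containing (PLUNC) family, whose proteins are released onto mucosal and salivary surfaces and bind lipids. SLURP1 is a secreted Ly6/uPAR protein of keratinocytes, and LYPD3 is its surface-bound relative in the upper layers of squamous epithelium. PHGR1 is a small protein rich in proline, histidine and glycine, found in differentiated gut epithelium, PIGR carries antibodies across epithelia, and lactoferrin (*LTF*) binds iron.

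Cells were classed by 3 genes that are not members, each at 1 UMI or more, within each cow. Cells with *GJA1* and *GSTA1* and without *DLK2* (a Delta-like membrane protein) are called GJA1+ GSTA1+ cells, and cells with *DLK2* and neither of the others DLK2+ cells. The first class held 447, 420 and 565 cells in cows 1, 2 and 3, and the second held 1072, 3378 and 2078. Cells with *GJA1* only, with *GSTA1* only, with none of the 3, and with *DLK2* beside *GJA1* or *GSTA1* (mixed) made up the other 4 classes. Depth was not equal, with a median of 16469 UMIs per cell in GJA1+ GSTA1+ cells, 12703 in cells with *GSTA1* only and 9505 in DLK2+ cells. Mitochondrial genes gave a median of 16.2% of the UMIs of GJA1+ GSTA1+ cells and 10.5% of those of DLK2+ cells.

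*BPIFA2C* was concentrated in few cells. It had 20557 UMIs in 1823 cells, 8.79% of all cells, and 80.4% of the UMIs were in the GJA1+ GSTA1+ class, which was 6.91% of the cells. The 100 cells with the most *BPIFA2C* held 56.3% of its UMIs, and 1 cell had 735. Its level in GJA1+ GSTA1+ cells was 8.23, 4.72 and 7.69 UMIs per 10000 UMIs in cows 1, 2 and 3, a mean of 6.88 ± 1.89 (SD, n = 3). In DLK2+ cells it was 0.119, 0.0212 and 0.0163. Every cow had its highest level in GJA1+ GSTA1+ cells and its lowest in DLK2+ cells, and the ranges of these 2 classes did not overlap. In a test of sums over all genes between these classes, described with the other defence genes, 9.56% of genes were called higher in GJA1+ GSTA1+ cells, and nothing is read from the place of the members among them.

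Between these ends the order of *BPIFA2C* was less firm. Cells with *GJA1* only had 6.53 UMIs per 10000 in cow 1, but 0.345 and 0.0354 in the other 2 cows. The mixed class came next with 0.742 ± 0.572, followed by cells with *GSTA1* only at 0.444 ± 0.405 and cells with none of the 3 genes at 0.110 ± 0.141 (SD, n = 3). All neighbours in this order overlapped over the cows. Within each cow, the mixed class was above cells with *GSTA1* only, and these were above cells with none of the 3, in 3 of 3 cows. The counts of *BPIFA2C* are uncertain in that the cattle genome holds close relatives of it, and reads shared by such copies could be split or lost.

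*PHGR1* had 1624 UMIs in 548 cells, of which 74.9% were in GJA1+ GSTA1+ cells. Its level there was 0.816, 0.175 and 0.535 UMIs per 10000 in cows 1, 2 and 3, against 0.0127, 0.000261 and 0.000524 in DLK2+ cells. Cow 2 was the low cow in the first class, and cow 1 the high cow in the second. The last 2 values of *PHGR1* in DLK2+ cells stand for 1 UMI each. Cells with *GSTA1* only reached 0.248 in cow 1, and 0.0120 and 0.0308 in the other 2 cows.

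*SLURP1* was rare, with 417 UMIs in 217 cells, of which 66.2% were in GJA1+ GSTA1+ cells. The level there was 0.0536, 0.125 and 0.163 UMIs per 10000 in cows 1, 2 and 3. DLK2+ cells held 1, 10 and 0 UMIs of *SLURP1* in the same order, and in cow 3 a count of 3 would be 0.964% of the GJA1+ GSTA1+ level. Mixed cells came second with 0.0346 ± 0.0310 (SD, n = 3), and their range overlapped that of GJA1+ GSTA1+ cells although they were lower in 3 of 3 cows. In contrast to *BPIFA2C* and *PHGR1*, cow 1 had the lowest *SLURP1* level in GJA1+ GSTA1+ cells.

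*LYPD3* had another spread. Its 14768 UMIs lay in 7361 cells, 35.5% of all, and the 100 cells with the most held 8.07% of them. The level in GJA1+ GSTA1+ cells was 1.35, 1.65 and 1.57 UMIs per 10000 in cows 1, 2 and 3, and in DLK2+ cells it was 0.271, 0.412 and 0.301. Cells with *GSTA1* only (0.819 ± 0.177), with *GJA1* only (0.802 ± 0.211), the mixed class (0.673 ± 0.204) and cells with none of the 3 (0.471 ± 0.138; SD, n = 3) lay between, each overlapping its neighbour. GJA1+ GSTA1+ cells were the 1 class whose *LYPD3* range did not overlap that of the next class. Among cells with none of the 3 genes, those with the basal markers *KRT15* and *IGFBP6* had 0.635 ± 0.225, cycling cells with *MKI67* and *TOP2A* 0.606 ± 0.231, and the rest 0.367 ± 0.108.

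*LTF* was close to the limit of detection, with 16 UMIs in 16 cells. Of these cells, 8 were among the 1432 GJA1+ GSTA1+ cells, 0.559% (exact binomial 95% interval 0.241 to 1.10), and 1 was among the 6528 DLK2+ cells, 0.0153% (0.000388 to 0.0853). Of the 8 cells, 6 UMIs came from cow 2, which leaves 1 in each of the other cows. Such intervals cover counting error only, and for a transcript at this depth no order of cell classes was read from them.

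**Figure D1:**
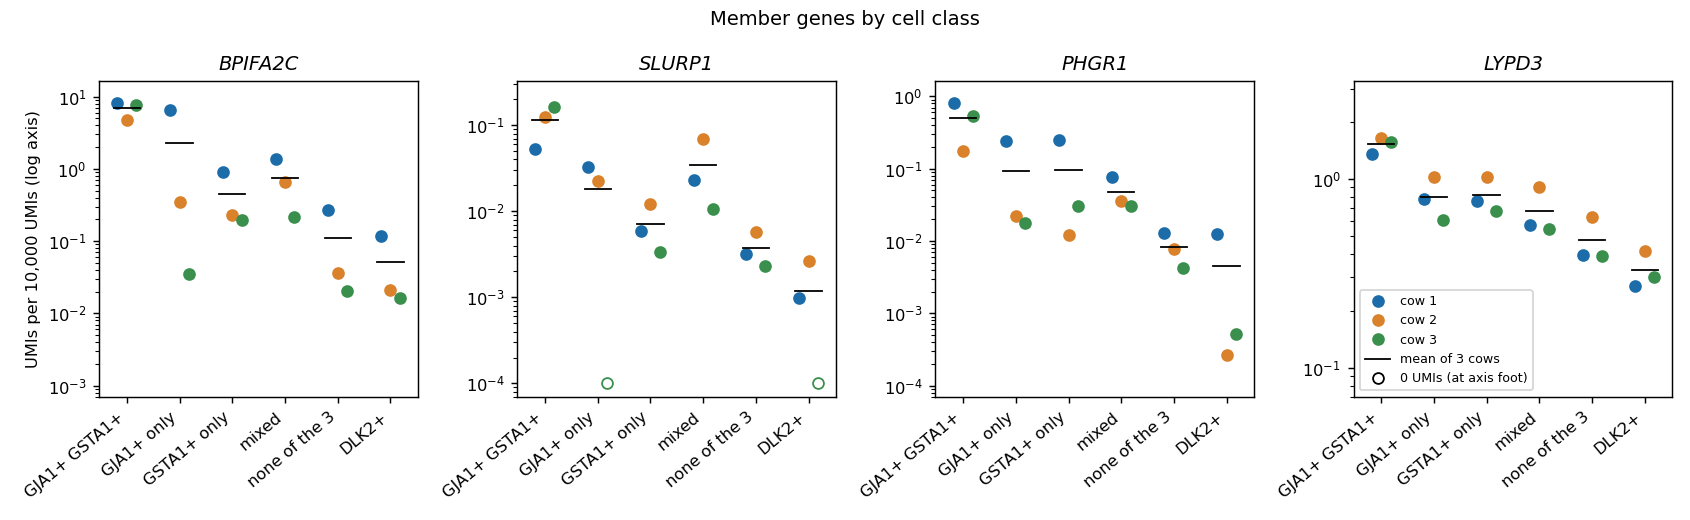
Levels of 4 member genes (UMIs per 10000 UMIs, log axis) in each cow for the 6 cell classes; the bar is the mean of 3 cows and an open circle at the axis foot is 0 UMIs. *BPIFA2C* spans 8.23 to 0.0163, while *LYPD3* stays between 1.65 and 0.271.

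Free RNA in the droplet fluid gives UMIs of a gene to cells that do not express it, so each level in DLK2+ cells was set against that in GJA1+ GSTA1+ cells of the same cow. The same was done for 4 reference genes that earlier results gave as leading genes of the *GJA1* class, among them *SLC9A2* (a sodium/proton exchanger) and *RBP2* (a retinol-binding protein). For *BPIFA2C* the DLK2+ level was 1.44% of the GJA1+ GSTA1+ level in cow 1 (exact Poisson 95% interval 1.2 to 1.73), 0.448% in cow 2 (0.356 to 0.557) and 0.212% in cow 3 (0.144 to 0.300). *PHGR1* retained 1.55%, 0.149% and 0.0980%, and *SLURP1* 1.82%, 2.09% and 0%. Pooled over the cows, these shares lay within the range of the 4 references, 0% to 8.98%, whose ends rest on *TMEM45B* at 0 UMIs and *RBBP8NL* at 2. *RBP2* retained 1.73%, 0.623% and 1.13%, and *SLC9A2* 2.06%, 1.58% and 2.04%. In cow 3 the *BPIFA2C* interval lay below those of *RBP2* (0.517 to 2.15) and *SLC9A2* (0.420 to 5.95), while in cows 1 and 2 it overlapped both. These places changed without cells of a mitochondrial share below 5%. The cow 3 share was then 0.374% (0.253 to 0.534), which overlapped *SLC9A2* (0.438 to 6.20) and stayed below *RBP2* (0.622 to 2.58). In cow 2 it was 0.416% (0.325 to 0.523), below *SLC9A2* (0.537 to 3.86) and overlapping *RBP2* (0.386 to 1.03). The intervals cover the DLK2+ count only.

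*LYPD3* retained 20.0% in cow 1 (17.7 to 22.5), 25.0% in cow 2 (23.8 to 26.3) and 19.1% in cow 3 (17.6 to 20.8). In every cow this was above each reference gene, and its Poisson interval lay above those of *RBP2* and *SLC9A2*. The references had been chosen as leading genes of the *GJA1* class, so a low share in DLK2+ cells was built into that choice. The place of each member beside them is a description. The scarce reference genes are less precise: *TMEM45B* had 1, 0 and 0 UMIs in DLK2+ cells, and *RBBP8NL*, with 2, 2 and 1, reached 8.98% in cow 1 with an interval of 1.09 to 32.4. Counting DLK2+ cells whatever their *GJA1* and *GSTA1* raised the mean retained share to 26.8% for *LYPD3*, 3.31% for *BPIFA2C*, 9.38% for *SLURP1* and 3.04% for *PHGR1*, while *SLC9A2* rose to 9.51% and *RBP2* to 5.42%.

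**Figure D2:**
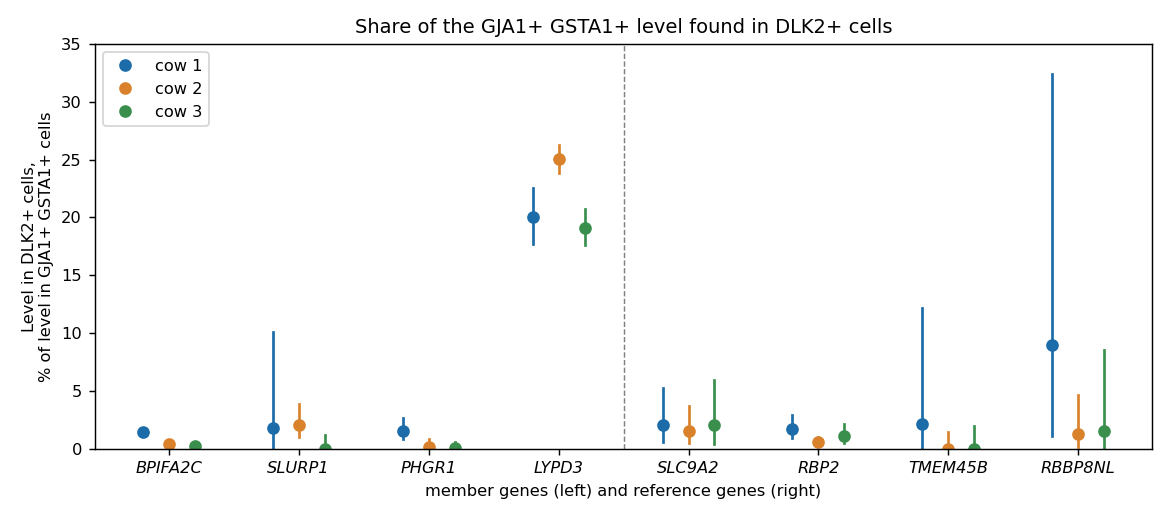
Level of each gene in DLK2+ cells as a percentage of its level in GJA1+ GSTA1+ cells, per cow, with exact Poisson 95% intervals of the DLK2+ count. *LYPD3* sits between 19.1% and 25.0%, and the other 3 members lie at or below 2.09%.

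The ratio of UMIs of each member to those of *RBP2* was also compared within each cow, and the part of free RNA in it was not tested. For *BPIFA2C* in cow 1 it was 11.2 in GJA1+ GSTA1+ cells (exact binomial 95% interval 10.3 to 12.2), 9.38 in DLK2+ cells (5.29 to 18.1), 9.77 in cells with none of the 3 and 9.64 in mixed cells, but 4.58 (3.69 to 5.73) in cells with *GSTA1* only and 36.1 (23.7 to 58.0) in cells with *GJA1* only. In cow 2 it was 6.26 (5.74 to 6.83) in GJA1+ GSTA1+ cells and 4.50 (2.68 to 7.97) in DLK2+ cells, against 3.26 (2.21 to 4.90) in cells with none of the 3, 3.29 (2.73 to 3.98) in mixed cells and 3.25 (2.45 to 4.37) in cells with *GSTA1* only. In cow 3 it was 18.4 (16.5 to 20.6) in GJA1+ GSTA1+ cells, 3.44 (1.60 to 8.23) in DLK2+ cells, 3.67 in cells with none of the 3, 4.27 in mixed cells and 4.81 in cells with *GSTA1* only. The interval of DLK2+ cells overlapped that of GJA1+ GSTA1+ cells in cows 1 and 2 and lay below it in cow 3. In every cow at least 1 class had an interval apart from that of GJA1+ GSTA1+ cells. These intervals take each UMI as independent, although 1 cell of cow 3 held 735 of the *BPIFA2C* UMIs. They are therefore too narrow, here and for the other members, and a gap between 2 of them is no test. Without cells of a mitochondrial share below 5%, the ratio in GJA1+ GSTA1+ cells was 9.12 in cow 1, 6.27 in cow 2 and 12.1 (10.7 to 13.7) in cow 3. For *LYPD3* the ratio rose from 1.84, 2.18 and 3.77 in GJA1+ GSTA1+ cells of cows 1, 2 and 3 to 21.4, 87.7 and 63.8 in DLK2+ cells, and the intervals of the 2 classes lay apart in each cow. *SLURP1* had 0.0732, 0.165 and 0.391 in GJA1+ GSTA1+ cells against 0.0769, 0.556 and 0 in DLK2+ cells, and in cow 2 the DLK2+ interval, 0.229 to 1.27, lay above that of GJA1+ GSTA1+ cells, 0.133 to 0.204. *PHGR1* had 1.11, 0.232 and 1.28 against 1.00, 0.0556 and 0.111, and in cow 3 the DLK2+ interval, 0.00254 to 0.802, lay below that of GJA1+ GSTA1+ cells, 1.11 to 1.48.

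The share of cells with a UMI gave the same separation. With every cell of at least 5000 UMIs thinned to 5000, which left out 70 of 1432 GJA1+ GSTA1+ cells and 421 of 6528 DLK2+ cells, *BPIFA2C* was found in 60.4%, 35.7% and 25.9% of GJA1+ GSTA1+ cells of cows 1, 2 and 3. DLK2+ cells gave 4.78%, 0.848% and 0.726%. Unthinned shares were 74.5%, 51.0% and 36.1%, against 9.42%, 1.98% and 1.16%. *PHGR1* was found after thinning in 10.5 ± 5.69% of GJA1+ GSTA1+ cells and in 0.162 ± 0.254% of DLK2+ cells, and *SLURP1* in 4.09 ± 1.29% and 0.0884 ± 0.0789% (SD, n = 3). The *PHGR1* shares of DLK2+ cells were 0.455%, 0.0303% and 0% in cows 1, 2 and 3, so cow 1 carried their mean. The thinned share of *LYPD3* was 44.9 ± 2.59% in GJA1+ GSTA1+ cells, 29.5 ± 3.83% in cells with *GSTA1* only, 18.0 ± 2.92% in cells with none of the 3 and 12.1 ± 1.56% in DLK2+ cells. The share of *BPIFA2C* in DLK2+ cells was highest in cow 1, and the part of free RNA in it was not tested.

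Counts per positive cell also differed by class. Among cells with *BPIFA2C*, GJA1+ GSTA1+ cells had a median of 6 UMIs, and 310 of 751 had 10 or more. In DLK2+ cells 170 of 192 such cells had 1 UMI, and the highest had 9. All 11 DLK2+ cells with *SLURP1* had 1 UMI, as had 12 of the 13 with *PHGR1*. *LYPD3* was seen with 1 UMI in 1083 of 1560 positive DLK2+ cells, and 4 of them had 10 or more.

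In DLK2+ cells ordered by depth within each cow, *BPIFA2C* went from 37.5 ± 38.8 UMIs per 1000 cells in the shallowest of 4 equal groups to 74.7 ± 74.4 in the deepest (SD, n = 3). The median depth was 3984 to 6671 UMIs in the shallowest group of the cows and 13058 to 16410 in the deepest. Per 10000 UMIs it was lower in the deepest than in the shallowest group in 3 of 3 cows, going from 0.202 to 0.0964 in cow 1, from 0.0294 to 0.0207 in cow 2 and from 0.0214 to 0.0194 in cow 3, where the 2 groups held 6 and 14 UMIs. *LYPD3* went from 113 ± 17.7 to 708 ± 325 UMIs per 1000 cells, and from 0.217 ± 0.0273 to 0.433 ± 0.159 per 10000 UMIs. The *LYPD3* level per 10000 UMIs was higher in the deepest than in the shallowest DLK2+ cells in 3 of 3 cows.

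The members also followed the amount of *GJA1* in a cell, among cells without *DLK2*. *BPIFA2C* was at 0.222 ± 0.240 UMIs per 10000 in cells with no *GJA1* UMI, 1.11 ± 0.741 with 1, 3.96 ± 2.44 with 2 to 4, 7.53 ± 4.58 with 5 to 9 and 15.7 ± 4.46 with 10 or more (SD, n = 3). Each step was upward in 3 of 3 cows. *PHGR1* went from 0.0397 ± 0.0489 to 1.13 ± 0.540, *SLURP1* from 0.00469 ± 0.00229 to 0.313 ± 0.221, and *LYPD3* from 0.581 ± 0.120 to 2.23 ± 0.381 between the lowest and highest bin. The median depth of these bins rose from 10359 to 19864 UMIs. Cells with 10 or more *GSTA1* UMIs had less of each, with *BPIFA2C* at 5.25 ± 1.91 and *LYPD3* at 1.48 ± 0.310.

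**Figure D3:**
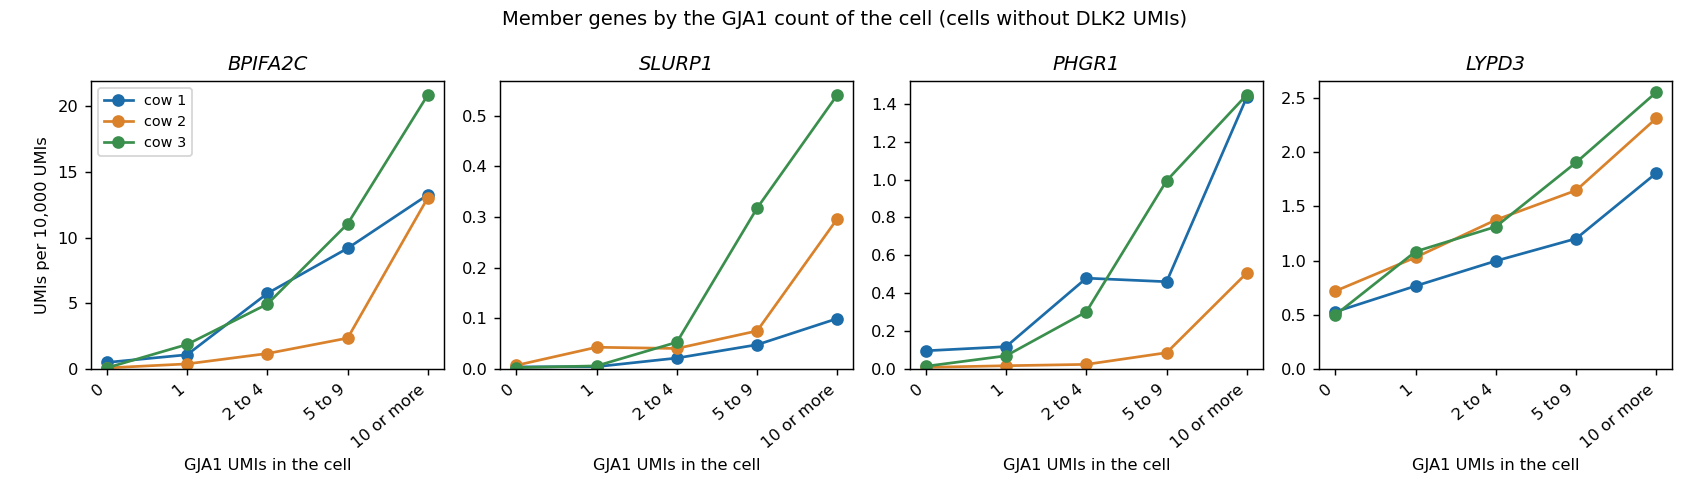
Levels of 4 member genes (UMIs per 10000 UMIs) by the number of *GJA1* UMIs in the cell, among cells without *DLK2*, as a line per cow. In cells with 10 or more *GJA1* UMIs *BPIFA2C* lies at 13.3, 13.1 and 20.9 in cows 1, 2 and 3.

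Within GJA1+ GSTA1+ cells thinned to 5000 UMIs, the members were found together to different degrees. Cells with *BPIFA2C* had *PHGR1* in 20.1%, 10.1% and 25.2% of cases in cows 1, 2 and 3, and cells without it in 8.59%, 1.13% and 7.05%. *RBP2* showed a like gap, at 30.9%, 38.5% and 26.6% against 7.36%, 13.2% and 8.82%, whereas *SLC9A2* was found in 7.63%, 5.41% and 3.60% against 4.91%, 5.26% and 3.02%. For *LYPD3* the gap was smaller, at 45%, 53.4% and 46.0% against 39.9%, 44.7% and 43.1%. *SLURP1* was found in 3.21%, 9.46% and 7.91% of cells with *BPIFA2C* and 3.07%, 3.38% and 2.02% of cells without.

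Over the 18 sums of 6 classes and 3 cows, with log2(CPM + 1) (CPM, the count scaled by library size) centred within each cow, the genes most like *BPIFA2C* of the 10701 genes that passed the filter on low counts were *CLPTM1* (Pearson r = 0.967), *RBP2* (0.963) and the stress keratin gene *KRT6A* (0.961). *PHGR1* was most like *PKP1* (0.968), a desmosome gene, then *KRT6A* (0.966) and *TMEM79* (0.965). *LYPD3* was most like *S100A12* (0.991), *KRT6A* (0.989) and *TMEM79* (0.986), and *SLURP1* most like *BPIFA2C* itself (0.952), *MYO6* (0.925) and *RBP2* (0.924). These sums share their libraries and their class genes, so the values describe likeness of pattern and were not tested.

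To place the members among other surface defence genes, a list of 128 such genes was examined, of which 84 had a row and 77 had at least 1 UMI. Sums per cow and class were tested with edgeR's quasi-likelihood test, and a gene was called at a Benjamini-Hochberg adjusted p under 0.05 with a log2 fold change above 0.36 in size. Of the 33 listed genes abundant enough to test between GJA1+ GSTA1+ and DLK2+ cells, 11 (33.3%) were called higher in GJA1+ GSTA1+ cells and 4 (12.1%) lower, while among all 10701 genes 9.56% were called higher and 8.71% lower. The list's median log2 difference was 0.53 against -0.03 over all genes. Of the 11, 8 did not reach the filter's minimum on low counts (1.23 CPM in 3 sums) in DLK2+ sums and were tested only because of other classes, so their calls were set by the filter and are no support for the list. Of the 16 listed genes that reached it in DLK2+ sums, 3 (18.8%) were called higher and 4 (25%) lower, against 9.20% and 9.41% of 9240 genes, and the median was 0.09. With the cow as a block, 18 of the 33 were called higher and 4 lower, in a fit that called 22.8% of all genes higher and 23.9% lower, 5004 genes rather than 1955. Of the 16, the block called 7 higher and 4 lower, against 22.6% and 24.9% of the 9240. In both fits *LCN2* and *LY6E* were among the 4 called lower. They did not reach the minimum in all 3 GJA1+ GSTA1+ sums, so these calls were set by the filter and are no support for the list.

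The genes called higher that reached the filter's minimum in DLK2+ sums were all S100 genes, *S100A8*, *S100A9* and *S100A12*. No p is given for the 8 whose calls the filter set, and their values are a description only. These are *LYPD2*, *LY6G6C*, *LY6G6E*, *LY6D*, *BPIFA2A*, *SPINK5*, *WFDC18* and *DUOXA2*. Of the Ly6/uPAR relatives of *SLURP1* and *LYPD3*, *LYPD2* had 0.0536, 0.0272 and 0.0638 UMIs per 10000 in GJA1+ GSTA1+ cells of cows 1, 2 and 3 and 0 UMIs in DLK2+ cells. It was at least 109-fold higher when the floor of 3 counts over all DLK2+ cells is used, and at least 48.6-fold without the 83 cells of a mitochondrial share below 5%, which held 65 of its 116 UMIs. *LY6G6C* was 5.78 (SE 1.00) and *LY6G6E* 4.31 (SE 0.59) higher on the log2 scale, in 3 of 3 cows. Of the relatives of *BPIFA2C*, *BPIFA2A* was at 0.0243, 0.0185 and 0.00368 in GJA1+ GSTA1+ cells, 37 UMIs in all, and at 0 UMIs in DLK2+ cells, at least 34.9-fold higher. The other BPI-fold genes were too rare to test, with 20 UMIs of *LBP*, 10 of *BPI*, 3 of *BPIFB6* and 1 each of *BPIFA1* and *BPIFB1* in all cells.

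The calls of the protease inhibitors and of a maturation factor were set by the filter, so their values are a description, while those of the S100 genes were not. *SPINK5*, which codes for a serine protease inhibitor of the outer epidermis, had 0.0498, 0.00989 and 0.205 UMIs per 10000 in GJA1+ GSTA1+ cells and 0 UMIs in DLK2+ cells, at least 199-fold higher. Without cow 3 that bound was 67.3-fold, and without the 83 cells of a mitochondrial share below 5%, which held 170 of its 214 UMIs, it was 41.6-fold. *WFDC18*, of the whey acidic protein family, went from 0.0235 ± 0.0143 to 2.18 ± 1.01 UMIs per 10000 (SD, n = 3), and *DUOXA2*, the maturation factor of a hydrogen peroxide producing oxidase, from 0.000911 ± 0.000981 to 0.0326 ± 0.0171. Of other listed genes for this type of oxidase, *DUOX1* and *DUOXA1* were not called (edgeR adjusted p = 0.79 and 0.054). *DUOX2*, with 16 UMIs in all cells, was too rare to test. With the cow as a block *DUOXA1* was called higher, as were *PLAUR*, *WFDC3* and *CXCL14*, the last of these higher in 2 of 3 cows. The block also called *LYNX1*, *MUC1* and *PI3* higher, which did not reach the filter's minimum in DLK2+ sums, so the filter set these calls. *S100A8*, a zinc- and calcium-binding alarmin, was at 12.1 ± 4.17 against 0.981 ± 0.113 (edgeR adjusted p = 4.1e-07). *S100A9* and *S100A12* were also called higher, by 3.23 and 2.55 on the log2 scale, and *LY6D*, whose call the filter set, was higher by 3.94. *LCN2* (lipocalin 2, which binds bacterial iron carriers) was lower by 3.48 (SE 0.62), with *LY6E*, *CD59* and *CYBA* also lower. In GJA1+ GSTA1+ sums of cows 1, 2 and 3, *LCN2* was at 0.255, 0.706 and 0.886 CPM and *LY6E* at 0.511, 1.13 and 1.77. The filter set these 2 calls, so their values are a description and no p is given. Of listed genes with at least 1000 UMIs, 6 were not called.

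**Figure D4:**
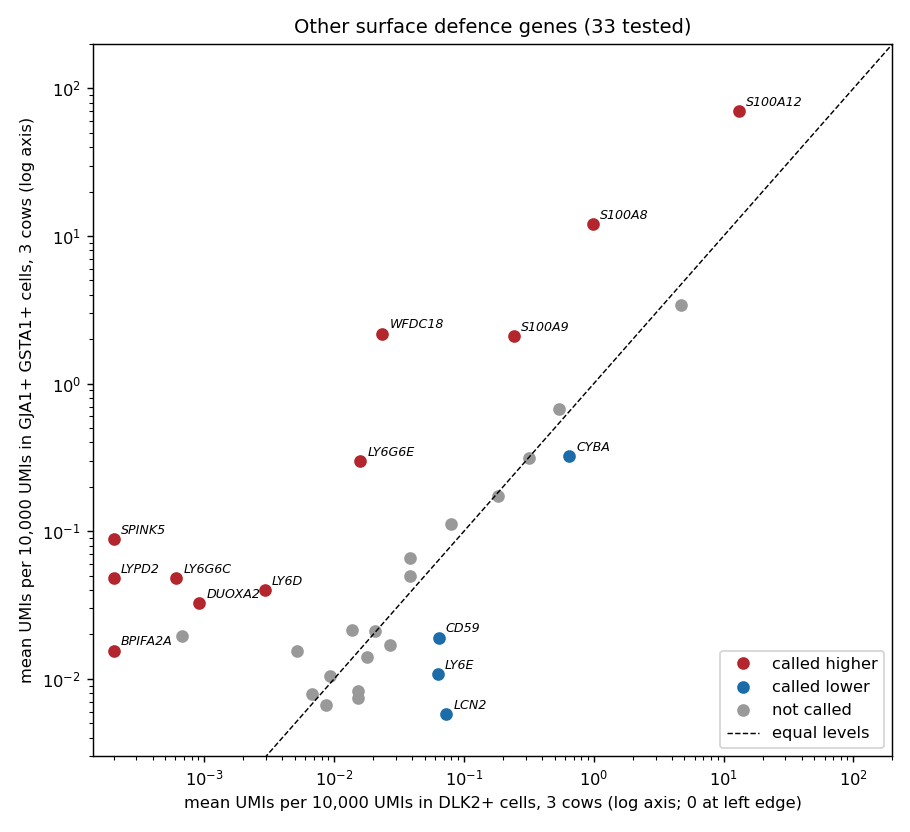
Mean level of the 33 tested surface defence genes other than the members in DLK2+ cells (x axis) and GJA1+ GSTA1+ cells (y axis), in UMIs per 10000 UMIs over 3 cows, both log axes, with genes at 0 in DLK2+ cells at the left edge. The 11 genes called higher lie above the line of equal levels and the 4 called lower lie below it.

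Markers of other cell types were measured in the same classes. Of the salivary and gland list, 2 of 5 genes had a row. Their summed level was 0.650 to 1.18 UMIs per 10000 over the cows in GJA1+ GSTA1+ cells and 0.124 to 0.208 in DLK2+ cells, nearly all from the water channel gene *AQP5* (1.18, 0.710 and 0.634 against 0.201, 0.122 and 0.115), while *LPO*, a secreted peroxidase gene, went the other way in 3 of 3 cows, at 0.00511, 0.00124 and 0.0159 against 0.00682, 0.00261 and 0.0362. Immune markers moved the other way, at 0.120 to 0.252 against 0.162 to 0.433. The 4 of 5 fibroblast and the 3 of 4 neutrophil markers with a row summed to 0.00255 or less in both classes, with *MPO* at 0 in both. Endothelial, plasma cell and smooth muscle lists summed to 0.0447 or less. Epithelial keratins summed to 55.9 to 134 in GJA1+ GSTA1+ cells and 56.2 to 115 in DLK2+ cells. The part of *AQP5*-bearing cells in the members' levels was not tested.

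A comparison that did not define the classes split GJA1+ GSTA1+ cells by *IGFBP5*, a secreted binding protein of insulin-like growth factors, into 377, 351 and 429 cells with it and 70, 69 and 136 without it in cows 1, 2 and 3. *BPIFA2C* was at 6.38, 3.67 and 4.74 UMIs per 10000 in IGFBP5+ cells and 25.5, 10.7 and 18.5 in IGFBP5- cells. The groups did not overlap, and the log2 difference was -1.78 (SE 0.30). It did not pass the threshold in edgeR (adjusted p = 0.15), in a fit that called 0.0231% of 8667 genes higher, *IGFBP5* itself among them, and 0.0346% lower. With the cow as a block the difference was -1.75 (SE 0.08, edgeR adjusted p = 3.3e-12), in a fit that called 313 genes rather than 5. The study had named separate clusters of these same cells by *IGFBP5* and by *BPIFA2C*. The p-values of *BPIFA2C* in this split are therefore no independent support.

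The other members were lower in IGFBP5+ cells in 3 of 3 cows too, without a call. *PHGR1* had 0.628, 0.148 and 0.423 against 2.57, 0.330 and 0.943 UMIs per 10000, a log2 difference of -1.54 (SE 0.62). *LYPD3* had 1.30, 1.50 and 1.40 against 1.89, 2.46 and 2.22, a difference of -0.56 (SE 0.23), and *SLURP1* had 0.0523, 0.112 and 0.119 against 0.0660, 0.198 and 0.326, a difference of -1.07 (SE 0.48). All 3 had an edgeR adjusted p of 1.00. With the block, the differences were -1.45 for *PHGR1* (adjusted p = 4.3e-07), -0.56 for *LYPD3* (0.00018) and -1.01 for *SLURP1* (0.014). Of 19 other defence genes tested, 1 was called lower, *LYPD2*, at 0.0184, 0.00872 and 0.0172 UMIs per 10000 in IGFBP5+ cells against 0.383, 0.132 and 0.234. It did not reach the filter's minimum (2.45 CPM in 3 sums) in IGFBP5+ cells and was tested only because of IGFBP5- cells, so its call was set by the filter, and it was lost with any cow left out. With the block 9 of the 19 were called lower, against 2.12% of all genes. Of these, *LYPD2*, *SPINK5*, *LY6G6C* and *DUOXA2* were set by the filter in this way. Of the 13 listed genes that reached the minimum in IGFBP5+ cells, 0 were called without the block, and 5 were called lower with it (*S100A8*, *S100A12*, *WFDC18*, *LY6G6E* and *CXCL14*), against 1.96% of 7789 genes. The median of the 13 was -0.25 against 0.01 over those genes. At an unadjusted p under 0.05 in edgeR 10 of the 19 were lower and 0 higher, where 3.99% of all genes passed in either direction. Of the 10, *LYPD2*, *SPINK5*, *LY6G6C*, *DUOXA2* and *LYPD6B* were tested only because of IGFBP5- cells and are no support for the list. DESeq2 called 3 of the 19 lower, *LYPD2* among them, and 0 higher, against 0.265% of all genes called lower. Whether the filter set the other calls of DESeq2 was not checked. Of listed genes with at least 1000 UMIs, 11 were not called.

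The split by *IGFBP5* moved with depth and with the mitochondrial share. IGFBP5- cells had a median of 13564 UMIs against 17108, and 42.9%, 5.80% and 11.8% of them in cows 1, 2 and 3 had a mitochondrial share below 5%, against 3.45%, 0.570% and 4.2% of IGFBP5+ cells. Without the low-mitochondrial cells *BPIFA2C* was at 6.13, 3.67 and 4.60 in IGFBP5+ cells and 6.31, 10.5 and 3.05 in IGFBP5- cells, so that the groups overlapped and cow 3 turned round. The log2 difference was then -0.42 (edgeR adjusted p = 1.00), with 2 genes called in all. With the cow as a block and without those cells it was -0.27 (SE 0.17, edgeR adjusted p = 0.53). *SLURP1* and *PHGR1* turned round in cow 3 as well, at 0.117 in IGFBP5+ cells against 0.0492 for *SLURP1* and 0.399 against 0.375 for *PHGR1*. Their log2 differences shrank to -0.15 and -0.69 without the block, both with an edgeR adjusted p of 1.00. With it they were 0.0061 (adjusted p = 1.00) and -0.62 (adjusted p = 0.031). *LYPD3* kept its order in 3 of 3 cows without those cells, with 1.28, 1.50 and 1.39 against 1.63, 2.45 and 2.03. Its difference was -0.47 (SE 0.25) without the block, which was not called, and -0.46 with it (SE 0.09, edgeR adjusted p = 0.00066). Of 86 *LYPD2* UMIs in IGFBP5- cells 21 were left without the low-mitochondrial cells, and the gene no longer passed the filter. Listed genes called lower without those cells were 0 of 16, and 3 of 16 with the block, which also called 1 higher, in a fit that called 1.61% of 8516 genes lower and 1.34% higher.

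Cells with a mitochondrial share below 5% were few among GJA1+ GSTA1+ cells, 43, 6 and 34 in cows 1, 2 and 3, and shallow, with a median of 3544 UMIs against 16986 in the others. *BPIFA2C* in them was at 94.9, 16.6 and 139.9 UMIs per 10000, against 6.14, 4.69 and 4.28 in the other GJA1+ GSTA1+ cells. All 3 cows were higher, cow 2 by the least. The cell with the most held 361 of 1747 UMIs in cow 1, 31 of 42 in cow 2 and 735 of 2863 in cow 3. Earlier results had pointed to this pattern, and it is given without a test. Cells with none of the 3 class genes showed the same direction at a lower level, with 3.62, 0.718 and 0.176 below 5% against 0.207, 0.0249 and 0.0187 in the others, ratios of 17.5, 28.9 and 9.39 in cows 1, 2 and 3. In GJA1+ GSTA1+ cells these ratios were 15.5, 3.54 and 32.7. DLK2+ cells had 0.148, 0.0675 and 0.0290 UMIs of *BPIFA2C* per 10000 in 63, 192 and 65 cells below 5%, against 0.117, 0.0195 and 0.0160 in the others, ratios of 1.26, 3.46 and 1.81 that rest on 7, 9 and 1 UMIs.

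The other members were tested in this comparison with mitochondrial genes left out. The 6 low-mitochondrial cells of cow 2 were under the minimum of 10 cells per sum, so the fit held 2 low sums and 3 others. *PHGR1* was at 7.23 UMIs per 10000 in low-mitochondrial cells of cow 1 and 6.01 in those of cow 3, against 0.662, 0.175 and 0.394 in the other cells of cows 1, 2 and 3, a rise of 3.77 on the log2 scale (SE 0.44, edgeR adjusted p = 0.00059), in a fit that called 0.815% of 9575 genes higher and 0.198% lower. *SLURP1* was at 0.380 and 2.49 in cows 1 and 3 against 0.0458, 0.124 and 0.103, a rise of 3.78 (SE 0.62, edgeR adjusted p = 0.0082). Of the 51 *SLURP1* UMIs of cow 3, 31 were in 1 cell, without which the level was 1.04, and cow 1 had 7 UMIs. The call was lost without cow 3, where the difference was 1.75 (adjusted p = 0.57), and without cow 2 (4.16, adjusted p = 0.068).

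*LYPD3* was at 3.1 and 3.52 UMIs per 10000 in low-mitochondrial cells of cows 1 and 3, and at 1.31, 1.64 and 1.52 in the others. The groups did not overlap, but the log2 difference of 0.90 (SE 0.30) did not pass the threshold in edgeR (adjusted p = 0.25), while with the cow as a block it did (1.01, SE 0.25, adjusted p = 0.0021). Of the 29 other defence genes tested here, 10 (34.5%) were called higher and 0 lower by edgeR. Of these 10, *LYZ1*, *SPINK5* and *LY6G6C* did not reach the filter's minimum (here 1.72 CPM in 2 sums) in the other cells and were tested only because of the shallow low-mitochondrial sums, which set their calls. Of the 22 listed genes that reached it there, 7 (31.8%) were called higher and 0 lower, against 0.656% of 9306 genes called higher, and their median was 0.56 against -0.34 over those genes, while that of all 29 was 1.79 against -0.31. With the block 11 of 29 were called higher and 0 lower, in a fit that called 1.79% of all genes higher (8 of the 22, against 1.68%). DESeq2 gave an adjusted p to 7532 genes, 19 of the list among them. It called 12 of the 19 higher and 0 lower, against 2.70% of the 7532 called higher. Which of the 12 were tested only because of the low-mitochondrial sums was not checked, so nothing is read from that share. At an unadjusted p under 0.05 in edgeR 15 of the list were higher and 3 lower, where 11.5% of all genes passed in either direction. Of the 15, *LYPD6B*, *LYPD5*, *CEACAM19*, *LYZ1*, *SPINK5* and *LY6G6C* were tested only because of the low-mitochondrial sums and are no support for the list. Of the 3, *ANG2* and *WFDC3* did not reach the minimum in both low-mitochondrial sums. Of listed genes with at least 1000 UMIs, 7 were not called.

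By the size of the difference *LYZ1*, a lysozyme gene, came first, but 399 of its 423 UMIs in low-mitochondrial cells of cow 3 were in 1 cell. Its level there was 20.7 UMIs per 10000 with that cell and 1.25 without it, cow 1 had 1 UMI, and the other cells were at 0.00392, 0 and 0.0126. *SPINK5* was at 2.01 and 6.50 in cows 1 and 3 against 0.00262, 0.00992 and 0.0428 in the other cells, *LY6G6C* at 0.978 and 2.69 against 0.0118, 0.00992 and 0.0340, and *LYPD2* at 1.36 and 1.91 against 0.0222, 0.0260 and 0.0164. *WFDC18* was at 14.4 and 60.8 against 0.909, 2.05 and 1.76. *S100A9*, at 1.52 and 93.0 against 1.11, 1.41 and 1.44, was a gene whose difference came from cow 3, where 775 of 1904 UMIs were in 1 cell. *DUOXA2*, *LY6G6E*, *S100A8* and *S100A12* were the remaining 4. The neutrophil markers *CSF3R*, *CXCR2* and *MPO* were at 0 UMIs in the low-mitochondrial cells of all cows, while the immune list was higher in them in 3 of 3 cows, at 0.272, 0.395 and 0.782 UMIs per 10000 (5, 1 and 16 UMIs) against 0.135, 0.252 and 0.103 in the other cells. The basal list was lower in low-mitochondrial cells in 3 of 3 cows, at 37.9, 45.0 and 30.5 against 53.7, 56.8 and 54.9. The part of immune RNA and of basal cells in these levels was not tested. Without cow 2 the edgeR fit called 4 of 19 listed genes higher, against 0.353% of all genes, and 33 genes in all rather than 97.

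**Figure D5:**
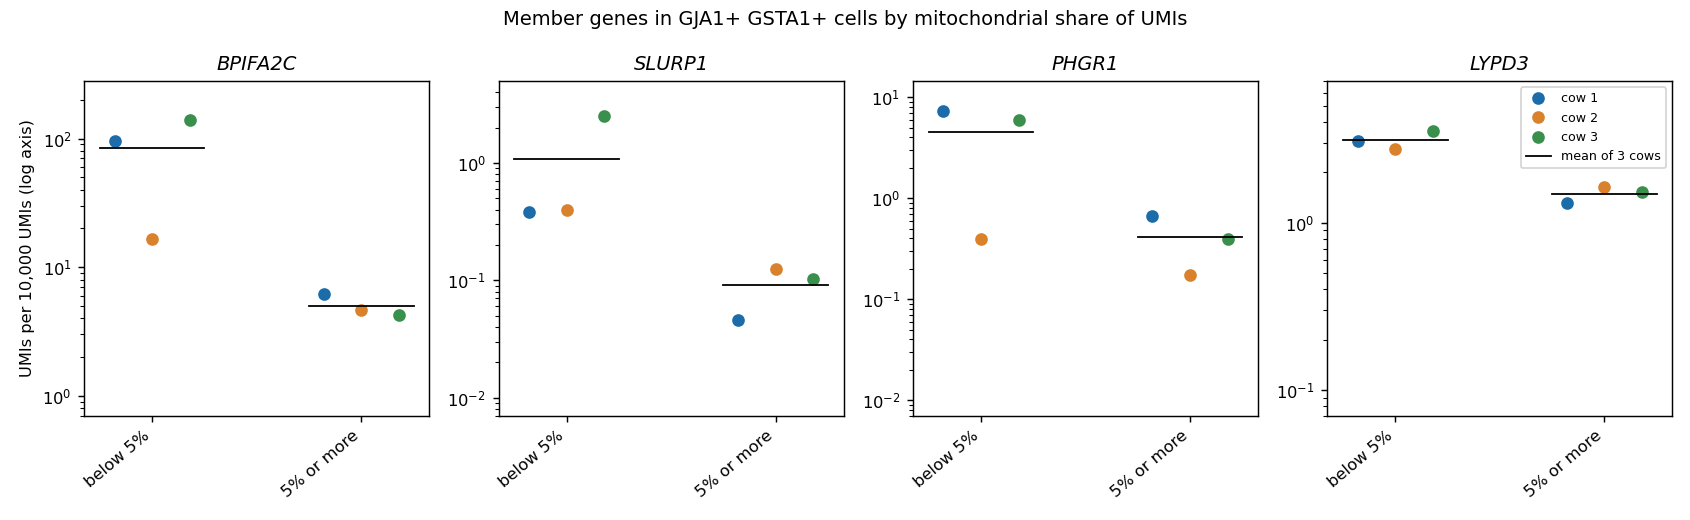
Levels of 4 member genes (UMIs per 10000 UMIs, log axis) in GJA1+ GSTA1+ cells with a mitochondrial share of UMIs below 5% and in the others, per cow, with the mean of 3 cows as a bar. The 6 low-mitochondrial cells of cow 2 are drawn but were not in the tested sums.

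Grouped by their own *BPIFA2C* level, a grouping chosen after its values were seen and given without a test, GJA1+ GSTA1+ cells differed in the other members and in other genes. The 681 cells with none had *PHGR1* at 0.127 ± 0.0794, *LYPD3* at 1.24 ± 0.128 and *SLURP1* at 0.0379 ± 0.00598 UMIs per 10000 (SD, n = 3). In the 45 cells above 50 *BPIFA2C* UMIs per 10000 these were at 6.66 ± 4.24, 4.62 ± 0.298 and 1.65 ± 1.50. *KRT5*, a keratin gene of the basal layer, was at 55.4 ± 16.5 in the first group and 12.8 ± 2.76 in the last. *KRT14*, the other basal keratin gene, went the opposite way in 3 of 3 cows, from 22.6, 33.1 and 62.8 in cows 1, 2 and 3 to 31.1, 46.9 and 185.9. *IGFBP5* was at 2.41 ± 0.555 in cells with no *BPIFA2C*, 3.12 ± 0.585 in the 547 cells above 0 to 10, 3.35 ± 1.76 in the 159 cells above 10 to 50 and 0.834 ± 0.737 in the 45 cells above 50, so that it was low in the last group alone. *GJA1* was at 2.24 ± 0.342 in the first group and 11.5 ± 3.44 in the last. Of the 45 cells, 60.0% had a mitochondrial share below 5%, against 3.23% of the 681, and their median depth was 7500 against 15303 UMIs. The part of depth and of the mitochondrial share in these differences was not tested.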

How the data were processed

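Ventral rumen sac epithelium of 3 cows was measured by droplet single-cell RNA sequencing. The authors aligned the reads and counted UMIs with Cell Ranger 3.1.0, removed cells by their gene number, UMI number and mitochondrial share, removed doublets and non-epithelial cells, and deposited whole-number UMI counts per gene and cell. They also deposited natural log values of counts scaled to 10000 UMIs per cell, used here only to name the rows of the matrix. No further doublet caller was run. The barcode suffix gave the cow, matched to the number in the sample title.

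The members and gene lists were chosen with earlier results of these data known. Levels are summed UMIs of a gene per 10000 UMIs in a cow and class. Cells were thinned by drawing UMIs without replacement. Intervals are exact (Clopper-Pearson binomial or Poisson, 95%) and cover counting error only. Sums of at least 10 cells per cow and class were tested with edgeR 4.0.16 in R 4.3.3 (TMM, filterByExpr, quasi-likelihood test, Benjamini-Hochberg adjustment over all genes tested), with all classes in 1 fit for the comparison of GJA1+ GSTA1+ with DLK2+ cells. The SE printed with an edgeR log2 difference is the size of the difference divided by the square root of the quasi-likelihood F, not a standard error from the fit. The test was checked on simulated counts that held no effect of the cow, so the check does not cover likeness between sums of the same cow. DESeq2 1.42.0 was an alternative. In Python 3.11.15, numpy 2.4.6, scipy 1.17.1, pandas 2.3.3 and matplotlib 3.10.9 were used. Genes named from the defence list were those with the largest differences among those called in the same direction in every cow, up to 8 per comparison. The remaining called genes and the genes of the *BPIFA2C* grouping were named after their values were seen.

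The classes compared come from the same 3 cows. After class means were taken out, sums of the same cow correlated at a mean of 0.703, 0.682 and 0.702 in cows 1, 2 and 3 (lowest 0.427) and sums of different cows at -0.373, so the cow pairs the sums. Counts with the cow as a block are given beside those without it, with values for the members whose call it changed. The test as reported has no such term, as in the study's own test. Depth was 38912809, 94856658 and 104189434 UMIs in cows 1, 2 and 3. Positions and sequences of the genes are not used here.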

Additional observations from a re-analysis of the deposited data

How the results depend on the processing

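In all, 296 values were recomputed, of which only log2 fold changes could be scored as reversed. Among these 1 reversed, that of *SLURP1* between IGFBP5+ and IGFBP5- cells, at 0.0061. It came with the block and without cells of a mitochondrial share under 5%, a fit chosen after seeing the data. That fit called 251 genes, with 1 of 16 listed genes higher and 3 lower, against 1.34% and 1.61% of all genes. Counts, levels and shares could be scored only as the same (180) or moved (39), and the fold threshold of 0.25 reused the main fit. The number of genes called between GJA1+ GSTA1+ and DLK2+ cells was 1955, 5004 with the replicate block and 911 to 1488 with 1 cow left out. Listed defence genes called higher went from 11 of 33 to 18 of 33 with the block, against 9.56% and 22.8% of all genes. Those called lower were 4 of 33, against 8.71% of all genes. They were 2 of 28 without cow 1, 3 of 35 without cow 2 and 3 of 31 without cow 3, against 5.85%, 3.87% and 5.11%. Between IGFBP5+ and IGFBP5- cells 5 genes were called, 35 by DESeq2, 56 with no filter, 313 with the block, 10 at a cut of 2 UMIs, 12 without the 5% of cells with the most UMIs, 2 without cells of a mitochondrial share under 5% (chosen after seeing the data) and 1 to 3 with 1 cow left out. Listed genes called lower there were 1 of 19, with the share of all genes called lower in brackets (0.0346%). They were 3 of 19 by DESeq2 (0.265%), 8 of 64 with no filter (0.284%) and 9 of 19 with the block (2.12%). At a cut of 2 UMIs they were 2 of 16 (0.107%), and 3 of 16 without the 5% of cells with the most UMIs (0.127%). Without cells of a mitochondrial share under 5% they were 0 of 16 (0%), and with any cow left out 0 of 20 (0.0225% or less). *BPIFA2C* was called lower in IGFBP5+ cells by DESeq2 (-1.78, adjusted p = 5.6e-08), with no filter (-1.70, edgeR adjusted p = 0.00011) and at a cut of 2 UMIs (-1.88, edgeR adjusted p = 0.042). The study's clusters had already been named by these genes, so the calls are no independent support. For low-mitochondrial cells 97 genes were called, 254 by DESeq2, 291 with no filter, 332 with the block and 33 to 88 with 1 cow left out, and the listed genes called higher went from 10 to 4 to 8 with 1 cow left out, those called lower from 0 to 1 with no filter. Leaving out cow 1 or cow 3 there leaves 1 low-mitochondrial sum, assumed to vary like the others. *LYPD3* was called higher by DESeq2 (1.00, adjusted p = 0.0051). At a cut of 2 UMIs *LYPD3* was at 1.69 UMIs per 10000 in GJA1+ GSTA1+ cells and retained 17.0%. Thinned to 3000 UMIs, *SLURP1* was found in 1.58% and *LYPD3* in 34.3% of GJA1+ GSTA1+ cells, and *LYPD3* in 7.74% of DLK2+ cells, as fewer UMIs per cell find fewer cells. The cause of the other changes was not tested. *LTF* and *SLURP1* had few UMIs, and every SD rests on 3 cows.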
